A study of Mus musculus with 4 samples.

Results

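Apolipoprotein E, clusterin and 5 other genes of lipoprotein handling were described in the back skin of mice lacking the sheddase ADAM17 in keratinocytes. The 7 genes were Apoe, Clu, Apoc1, Apod, Abca1, Abcg1 and Vldlr, out of 15552 genes measured. They were taken because of how they stood in cKO against control skin, so their differences between the genotypes are given as a description, with no test. Every probe for genes on the array that carried one of these names was kept, which gave 8 probes on 17 spots, and all 8 were well above background on all 4 arrays.

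The cKO animals were 2 pups with Adam17flox/flox alleles and a keratin-14-Cre transgene (Krt14-Cre, cKO), whose Cre is driven by a promoter active in keratinocytes. The other 2 were Krt14-Cre negative littermates, which the labels call control and wild-type. Both came from matings of Adam17flox/+ Krt14-Cre with Adam17flox/flox mice on a mix of 129Sv and C57BL/6, and all were 10 days old. By this cross each pup, controls included, inherited at least 1 floxed Adam17 allele. How many each control carried is not given. Each of 2 litters gave a cKO and control pair, numbered here as replicates 1 and 2. No control carried the transgene, so that an effect of Cre itself and the loss of ADAM17 cannot be told apart. RNA of whole skin biopsies was hybridised to 1-colour Agilent whole mouse genome arrays, so that fewer cells of a type and less RNA per cell cannot be told apart either.

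Lipoproteins carry cholesterol and triglyceride between cells, and the apolipoproteins on their surface decide which receptors and enzymes they meet. Inside the cell, oxysterols switch on the liver X receptors (LXR), which raise the transcription of the cholesterol exporters ABCA1 and ABCG1 and, in macrophages and fat tissue, of Apoe. Skin makes much of its own cholesterol, which becomes part of the lipid barrier of the cornified layer.

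Levels are log2 of the processed signal relative to the array's 75th percentile, so 1 unit is a doubling and a level can be read only within a probe. That percentile lay between 751 and 784 signal units, between 53.7% and 56.6% of the 43379 gene spots were well above background, and no gene spot was saturated. Adam17 itself had levels of -0.14 and -0.12 in cKO skin, against 0.44 and 0.37 in control skin, a difference of -0.54 ± 0.09 (SE, n = 2 each) that missed the threshold (limma, adjusted p = 0.114). The place of that probe relative to the deleted exons was not examined here. Keratinocyte markers were present, with all 6 listed measured, and they summed to 836 and 872 times the 75th percentile in cKO skin and to 697 and 707 times in control skin. Across all genes, limma called 53 of 15552 (0.341%) at an adjusted p under 0.05, 42 of them (0.27%) lower in cKO skin. With litter as a block, no gene passed (lowest adjusted p = 0.0567, with 3706 at an unadjusted p under 0.05), and none passed without either control array.

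Apoe, whose protein is a receptor ligand on remnant and some high-density lipoproteins, had levels of 7.33 and 7.09 in cKO skin, against 8.55 and 8.52 in control skin. Both cKO animals lay below both controls, and the cKO animals lay further apart than the controls. The means were 7.21 ± 0.18 in cKO skin and 8.53 ± 0.025 in control skin (SD, n = 2 each), a difference of -1.32 ± 0.12 (SE). The cKO signal was 39.9% of control, namely 43.0% in litter 1 and 37.1% in litter 2. Of the 15552 genes, 100 had a lower difference, and the middle 90% of genes ran from -0.48 to 0.44.

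The Apoe probe was printed on 10 spots of every array, which shows the error among spots within an array. The same spot was flagged as an outlier on each of the 4 arrays, and the other 9 were averaged. Processed signals of those 9 spots ran from 119074 to 128801 in cKO replicate 1 and from 101563 to 108202 in cKO replicate 2. In control replicate 1 they ran from 252342 to 299445, and in control replicate 2 from 267392 to 300180. No cKO spot reached the dimmest control spot. The SD of the log2 level among spots was 0.042 and 0.032 on the cKO arrays and 0.079 and 0.054 on the control arrays. It covers error among the spots of 1 array only. Between the 2 cKO animals, each on its own array, the SD was 0.18. In that value, differences between animals and between arrays cannot be told apart. The value of each Apoe spot came from the low-gain scan, scaled up by the scanner software, on all 4 arrays.

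**Figure D1:**
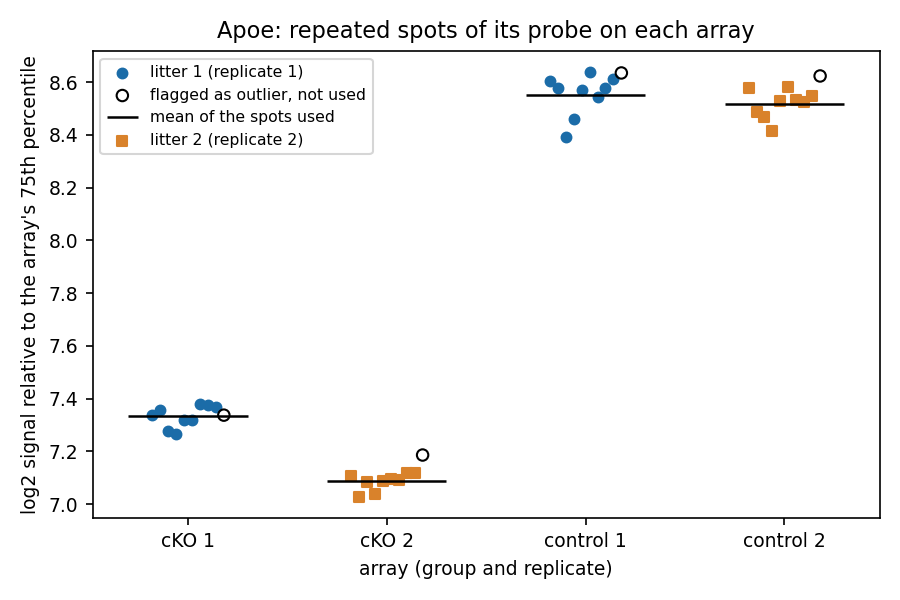
Level of the 10 Apoe spots on each array, as log2 signal relative to the 75th percentile of the array. Filled symbols are the 9 spots used, open circles the spot flagged as an outlier and lines the mean of the spots used. The spots of the cKO arrays lie between 7.03 and 7.38, and those of the control arrays between 8.39 and 8.64.

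The probe read a stretch of the Apoe message at chr7:20281732-20281791 on the minus strand of mm9. It is shown because the lead value of the set rests on this 1 sequence, which has all 3 reading frames free of stop codons.
Apoe probe: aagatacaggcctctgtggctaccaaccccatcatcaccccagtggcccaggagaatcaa

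Clu encodes clusterin, also called apolipoprotein J, a secreted chaperone that binds misfolded proteins and lipids. Its levels were 4.01 and 3.90 in cKO skin, against 5.15 and 5.15 in control skin. Both cKO animals lay below both controls, which nearly coincided. Its means were 3.96 ± 0.083 in cKO skin and 5.15 ± 0.0032 in control skin (SD, n = 2 each), a difference of -1.19 ± 0.09 (SE). The cKO signal was 43.7% of control, with 45.6% in litter 1 and 41.9% in litter 2. On both control arrays its spot, at chr14:66600151-66600210 of mm9, was read from the low-gain scan and scaled up, while on both cKO arrays it was read from the high-gain scan. The part of that change of gain in the difference was not tested.

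Apoc1, a small apolipoprotein that slows the uptake of lipoproteins and lies next to Apoe, had levels of 5.57 and 5.69 in cKO skin, against 5.60 and 5.76 in control skin. The genotypes overlapped, and litter 2 was the higher litter in both. The difference was -0.05 ± 0.11 (SE, n = 2 each), with -0.03 in litter 1 and -0.06 in litter 2, and the cKO signal was 96.8% of control. The probes of Apoc1 and Apoe are 6816 bases apart on the minus strand of chromosome 7, and their differences between the genotypes were -1.28 apart. Both genes were read from the low-gain scan on all 4 arrays.

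Apod, a lipocalin that carries arachidonic acid and steroids rather than a classical lipoprotein coat protein, had levels of -0.94 and -0.88 in cKO skin, against -0.12 and -0.43 in control skin. Both cKO animals lay below both controls, and here the controls were the more spread pair. The difference was -0.64 ± 0.13 (SE, n = 2 each), and it was -0.82 in litter 1 and -0.45 in litter 2. The cKO signal was 64.4% of control, or 56.7% in litter 1 and 73.1% in litter 2. The probe's match on chromosome 16 of mm9, from 31300545 to 31303530 on the minus strand, spans 2986 bases for a probe of 60, so the probe crosses a splice junction and reads spliced message. Its letters are shown for that reason.
Apod probe: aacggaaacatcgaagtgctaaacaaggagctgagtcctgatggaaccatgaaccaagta

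The 2 sterol exporters had nearly equal differences. Abca1, which loads cholesterol and phospholipid onto lipid-poor apolipoproteins, had levels of 1.97 and 1.82 in cKO skin, against 2.48 and 2.33 in control skin. Both cKO animals lay below both controls. Its difference was -0.52 ± 0.11 (SE, n = 2 each), with -0.51 in litter 1 and -0.52 in litter 2, and the cKO signal was 69.9% of control.

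Abcg1, which passes cholesterol on to high-density lipoproteins, had levels of 1.28 and 1.66 in cKO skin, against 1.76 and 2.19 in control skin. Both cKO animals lay below both controls, though cKO replicate 2 lay only just below control replicate 1. The difference was -0.51 ± 0.21 (SE, n = 2 each), with -0.48 in litter 1 and -0.54 in litter 2, and the cKO signal was 70.4% of control. Litter 2 was the higher litter in both genotypes. Leaving out control replicate 1 gave -0.72 and leaving out control replicate 2 gave -0.29, so the value depends on which control is used unless each cKO animal is set against its littermate.

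Vldlr, the very low density lipoprotein receptor, which binds ApoE-rich particles and the signalling protein reelin, was the member with the opposite sign. At its brighter probe it had levels of 0.43 and 0.36 in cKO skin, against 0.32 and 0.19 in control skin. Both cKO animals lay above both controls. The difference was 0.14 ± 0.09 (SE, n = 2 each), with 0.11 in litter 1 and 0.17 in litter 2, and it lay within the middle 90% of all genes. A second Vldlr probe, 4267 bases further along chromosome 19, had levels of -1.72 and -1.43 in cKO skin, against -1.88 and -1.98 in control skin. It had the same sign with a larger difference of 0.35, or 0.16 in litter 1 and 0.55 in litter 2. The 2 probes thus shared the direction but not the size, and their litter 2 values differed most.

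**Figure D2:**
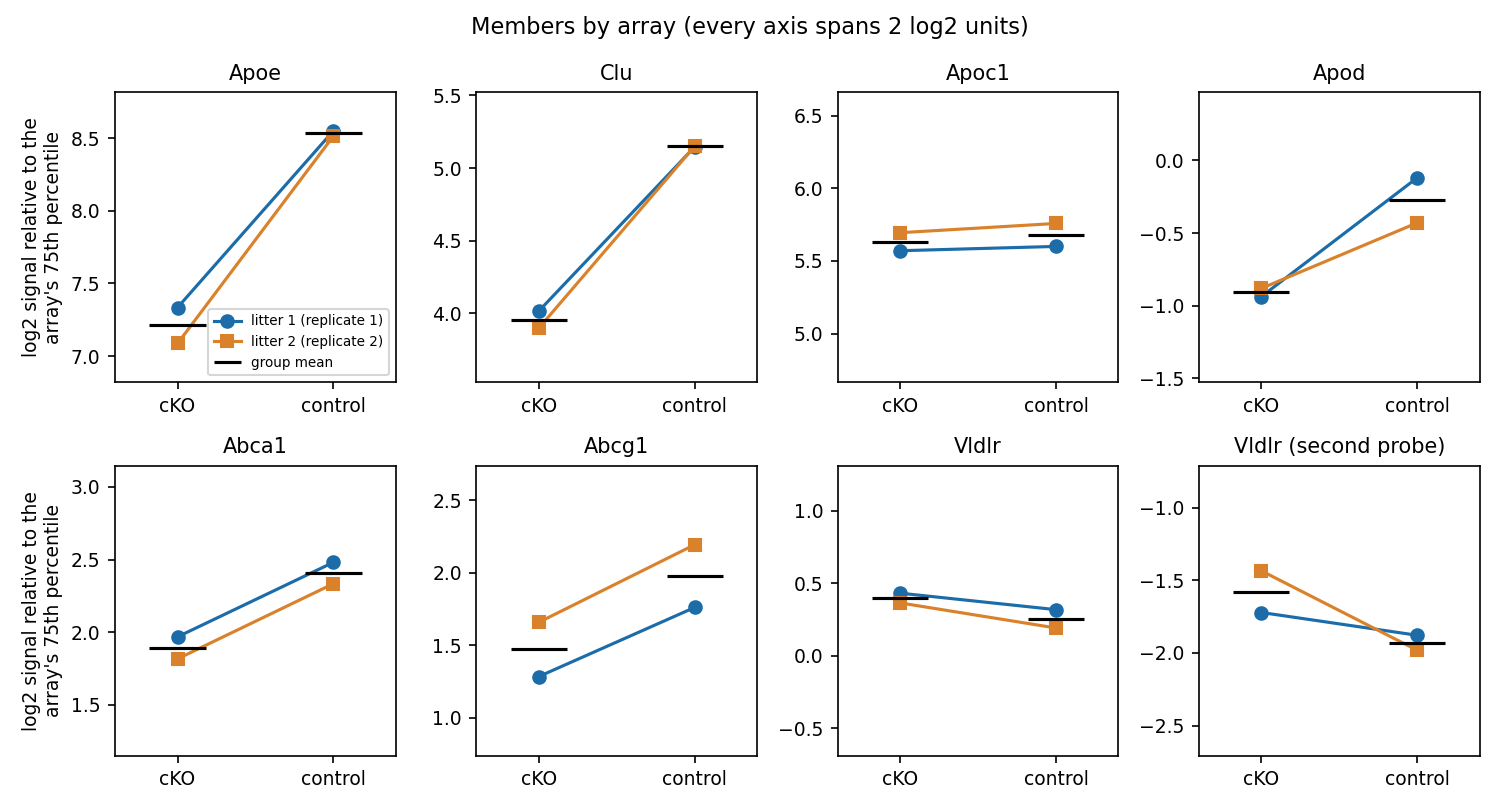
Level of each of the 8 probes on the 4 arrays, as log2 signal relative to the 75th percentile of the array, with cKO left of control. Lines join the pair of a litter and black bars are group means. Every axis spans the same 2 log2 units, so slopes can be compared between panels: Apoe and Clu are steepest, Apoc1 is nearly flat and both Vldlr probes slope the other way.

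Counted together, 5 of the 7 members had both cKO animals below both controls, as did 21.4% of all genes, and 1 had both above, as did 28% of all genes. By litter, 6 were lower in cKO skin in both pairs (32.1% of all genes) and 1 was higher in both (40.4% of all genes). These shares are printed beside the counts only as background, since the members were chosen from this contrast. The median difference of the members was -0.52, with -0.51 in litter 1 and -0.52 in litter 2, against 0.03 over all genes. Among themselves the members formed steps: Apoe lay at -1.32 and Clu at -1.19, Apod, Abca1 and Abcg1 between -0.64 and -0.51, Apoc1 at -0.05 and Vldlr at 0.14. The neighbours Apoe and Clu, and likewise Apod, Abca1 and Abcg1, differ by less than the sum of their standard errors.

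**Figure D3:**
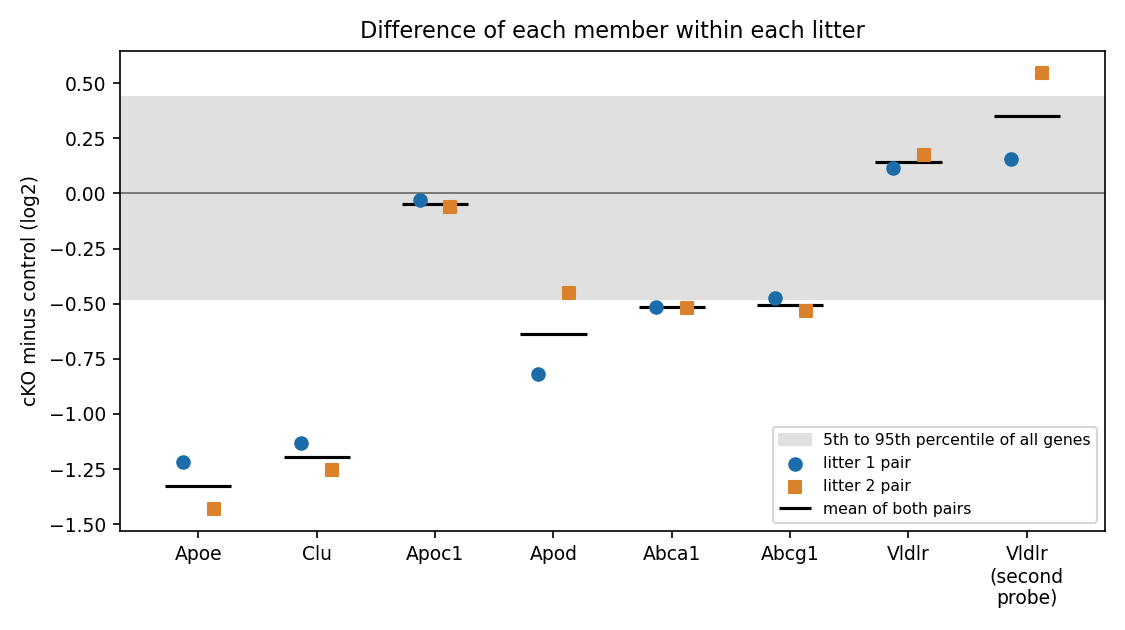
Difference between cKO and control on the log2 scale for the pair of each litter (symbols) and their mean (bars), per probe. The grey band holds the middle 90% of all genes, from -0.48 to 0.44. Apoe and Clu lie far below it in both litters, Abca1 and Abcg1 at its lower edge, and Apoc1 and the brighter Vldlr probe inside it.

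The litters offered a contrast that the choice of members did not use. With genotype in the model, litter 2 minus litter 1 ran from -0.15 for Abca1 to 0.40 for Abcg1, and no member passed (limma, adjusted p from 0.246 to 0.707). None of the 15552 genes passed either (0%), although the unadjusted p was under 0.05 for 2501 (16.1%). Of the members only Abcg1 did, at 0.40 ± 0.07 (SE, unadjusted p = 0.0077 by limma, adjusted p = 0.246), and it was higher in litter 2 in both genotypes. Apoe, with -0.14 ± 0.09, and Clu, with -0.06 ± 0.07, did not pass. The fit had 1 residual degree of freedom.

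The profile over the 4 arrays was then used to find the genes most like Apoe and Clu, as the distance between mean-centred log2 levels. Near to Apoe were Tmprss2, a membrane serine protease, at 0.040 and Slc23a3, a member of the ascorbate transporter family, at 0.083. Tmprss2 had levels of -1.05 and -1.28 in cKO skin, against 0.17 and 0.09 in control skin. Nearest to Clu were Slain1, a microtubule regulator, at 0.034, Tspan1, a tetraspanin, at 0.076 and Ngfr, the low-affinity neurotrophin receptor, at 0.105. Slain1 had levels of -1.79 and -1.90 in cKO skin, against -0.63 and -0.61 in control skin. Apoe and Clu were 0.163 apart, with 7 genes nearer to Apoe than Clu was and 9 nearer to Clu than Apoe was. The next member in likeness to Apoe, Apod, was 0.747 away, with 328 genes nearer. The distance rests on 4 arrays and includes the contrast by which the members were chosen.

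Apoe lies in a cluster of apolipoprotein genes on chromosome 7, so the measured genes on either side were listed by position in RefSeq (GRCm38.p6), whatever their values. The list ran further on the side of Apoc1, as far as Relb, than on the other side, as far as Bcam. Apoc4 and Apoc2, both apolipoproteins, had the opposite sign to Apoe, while Apoc1 between them and Apoe lay near 0. Apoc4, a minor apolipoprotein, had levels of -1.50 and -0.94 in cKO skin, against -2.54 and -2.11 in control skin, a difference of 1.11 ± 0.25 (SE, n = 2 each). Apoc2, the activator of lipoprotein lipase, had levels of -2.80 and -2.70 in cKO skin, against -3.43 and -3.19 in control skin, a difference of 0.56 ± 0.12. For both genes the cKO animals lay above both controls, yet neither passed (limma, adjusted p = 0.176 for Apoc4 and 0.161 for Apoc2). On the other side, Tomm40, a subunit of the mitochondrial import pore, differed by -0.17 ± 0.12 (adjusted p = 0.551), Nectin2 by -0.09 ± 0.09 and Bcam by -0.05 ± 0.27. Beyond Apoc2, Clptm1 differed by 0.01 ± 0.08 and Relb by 0.39 ± 0.11 (adjusted p = 0.237).

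**Figure D4:**
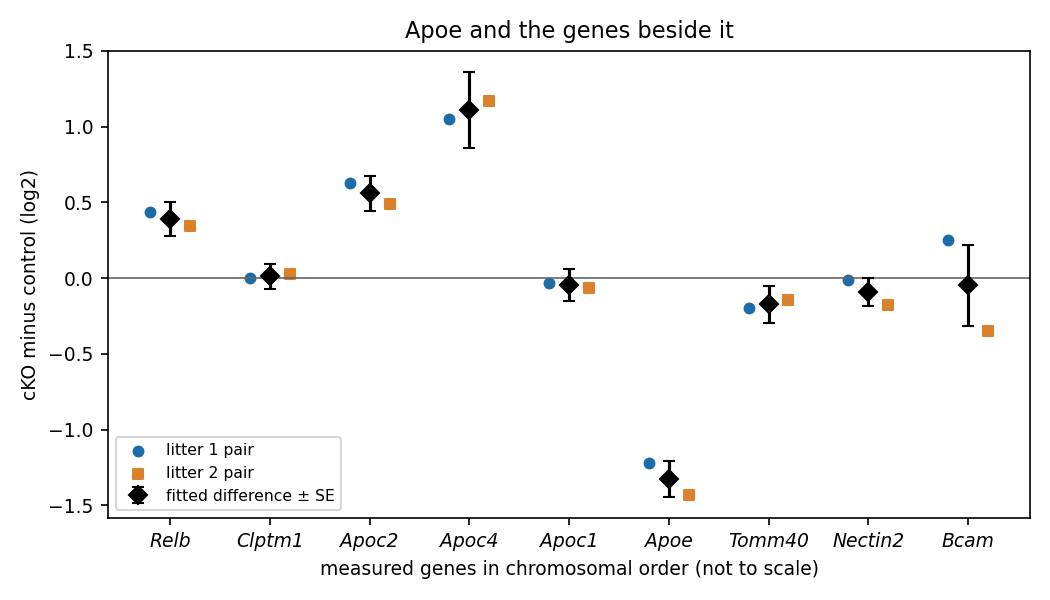
Difference between cKO and control on the log2 scale for Apoe and the measured genes beside it, in chromosomal order and not to scale. Diamonds are the fitted difference with its SE and the other symbols the pair of each litter. Apoe stands at -1.32 between Apoc1 at -0.05 and Tomm40 at -0.17, and Apoc4 and Apoc2 stand at 1.11 and 0.56.

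Promoter sequence was at hand in RefSeq (GRCm38.p6) for 4 of the 7 members: Apoe, Apod, Abca1 and Vldlr. The 250 bases before each annotated start were searched on both strands for short motifs, and the share of all 32851 such windows that hold each motif was counted. The nuclear receptor half-site AGGTCA was found in 14.0% of all windows. The GC box, the binding letters of SP1 and written GGGCGG, was found in 32.7% of all windows. The E-box CACGTG was found in 6.02% and the TATA box, with the letters TATAAA, in 12.4% of them. The AP-1 site, in which any base may stand at the centre, was searched as TGANTCA and found in 6.75%. One spelling of an LXR element, searched as 2 like half-sites of 5 bases set 5 bases apart, was found in 0.0457% (15 windows). The letters of its half-sites are those capitalised at 67 to 53 bases before the start in the Abca1 window, and they were picked after that sequence had been seen. The match in Abca1 was therefore fixed in advance. Neither its rarity nor its absence from the windows of other members can be read as a result. None of the motifs overlap in the windows printed. The 2 windows below are shown as examples of a window with several of these motifs close together, that of Abca1, and of a window with none, that of the first Apoe start. Capitals mark the matches. Abca1 lies at chr4:53159896-53160145 and the first of 3 annotated starts of Apoe at chr7:19699189-19699438, both on the minus strand and both written in the direction of transcription.
Abca1 promoter: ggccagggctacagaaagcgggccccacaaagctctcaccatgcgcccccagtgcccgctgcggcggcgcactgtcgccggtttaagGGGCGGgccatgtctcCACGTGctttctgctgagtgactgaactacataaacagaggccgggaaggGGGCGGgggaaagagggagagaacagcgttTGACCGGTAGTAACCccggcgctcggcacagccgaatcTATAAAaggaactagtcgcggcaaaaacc
Apoe promoter: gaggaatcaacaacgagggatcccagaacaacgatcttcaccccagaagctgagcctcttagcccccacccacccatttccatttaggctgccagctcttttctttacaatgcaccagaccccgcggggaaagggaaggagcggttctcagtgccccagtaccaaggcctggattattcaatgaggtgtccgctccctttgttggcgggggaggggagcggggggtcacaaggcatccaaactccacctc
In the Abca1 window, GC boxes stand 163 to 158 and 97 to 92 bases before the start, the E-box 147 to 142, the LXR element 67 to 53 and the TATA box 29 to 24 bases before it. Of the other 2 Apoe starts, one has TATAAA on both strands, overlapping, and one has none of the motifs. The Apod window has none, and of the 2 Vldlr windows one has a GC box. A match is a run of letters only, and binding was not measured.

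The other genes of the pathway were followed in 5 lists of 93 genes, of which 77 were measured. None of the 77 passed the test between genotypes (limma, with 0.0952 as the lowest adjusted p). An unadjusted p under 0.05 was found for 18 (23.4%), of which 6 were higher in cKO skin and 12 lower, against 16.2% of all genes. Their median difference was -0.01, against 0.03 over all genes. In both litters alike, 29 of the 77 were higher in cKO skin and 34 lower, beside 40.4% and 32.1% of all genes. None passed under any alternative processing either.

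The list of other apolipoproteins holds genes with apolipoprotein names, and whether each protein sits on lipoproteins was not examined. It had 6 measured of 14, since 8 genes, Apoa1 and Apob among them, were not well above background. Of the 6, 5 were higher in cKO skin in both litters (40.4% of all genes). The list median was 0.45, with 0.63 in litter 1 and 0.23 in litter 2. That median rests in part on a dim gene that was well above background on only 1 control array. Apoc4 and Apoc2 had the smallest p-values, with the values given above. The lipoprotein and scavenger receptors had 19 measured of 21, and their median was 0.02. In both litters alike, 7 of them were higher in cKO skin and 8 lower. Lrp2, which encodes the large endocytic receptor megalin, was not well above background on either cKO array and was so on both control arrays. Its measured means were -4.86 in cKO skin and -3.62 in control skin, at least 2.08-fold lower in cKO skin (adjusted p = 0.0952). Lrpap1, the chaperone of the LDL receptor family, had levels of 2.17 and 2.06 in cKO skin, against 2.45 and 2.47 in control skin (difference -0.34 ± 0.09, adjusted p = 0.212).

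In the list of sterol efflux and LXR genes all 18 were measured, and their median was 0.02, against -0.52 for Abca1 and -0.51 for Abcg1. In both pairs 8 were higher in cKO skin and 4 lower. Abcg4, a close relative of Abcg1, had levels of -1.13 and -1.10 in cKO skin, against -0.46 and -0.20 in control skin, a difference of -0.79 ± 0.12 (SE, adjusted p = 0.111). Nr1h3, which encodes LXR alpha, had levels of -0.69 and -0.63 in cKO skin, against -0.99 and -1.09 in control skin, a difference of 0.38 ± 0.09 (adjusted p = 0.187). Neither Abcg4 nor Nr1h3 passed.

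The lipases and remodelling proteins had 9 measured of 15 and a median of 0.02. In both pairs 3 were higher in cKO skin and 2 lower. Lpl, the lipase that frees fatty acids from lipoproteins, had levels of 5.12 and 4.66 in cKO skin, against 4.52 and 4.10 in control skin, a difference of 0.58 ± 0.23 (SE, adjusted p = 0.328). Ptgds, a lipocalin that makes prostaglandin D2, had levels of 3.39 and 3.65 in cKO skin, against 2.75 and 3.14 in control skin, a difference of 0.58 ± 0.18 (adjusted p = 0.253). Fat cell markers, among which Lpl is usually counted, moved with it: 6 of 8 were higher in both litters, and the list summed to 397 and 367 in cKO skin and to 343 and 254 in control skin. Their part in the Lpl value was not tested.

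In the list of sterol synthesis and its regulator SREBP2 all 25 genes were measured, and 19 were lower in cKO skin in both litters (32.1% of all genes), with 6 higher. Its median was -0.26, with -0.30 in litter 1 and -0.21 in litter 2, against 0.03 over all genes. None of the 25 passed, and the 7 with an unadjusted p under 0.05 were all lower. Insig1, which holds SREBP2 in the endoplasmic reticulum and is itself induced by it, had levels of -0.30 and -0.31 in cKO skin, against 0.28 and 0.28 in control skin, a difference of -0.58 ± 0.08 (SE, adjusted p = 0.0952). Its relative Insig2 had levels of 3.58 and 3.51 in cKO skin, against 3.98 and 4.16 in control skin, a difference of -0.52 ± 0.11 (adjusted p = 0.154).

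**Figure D5:**
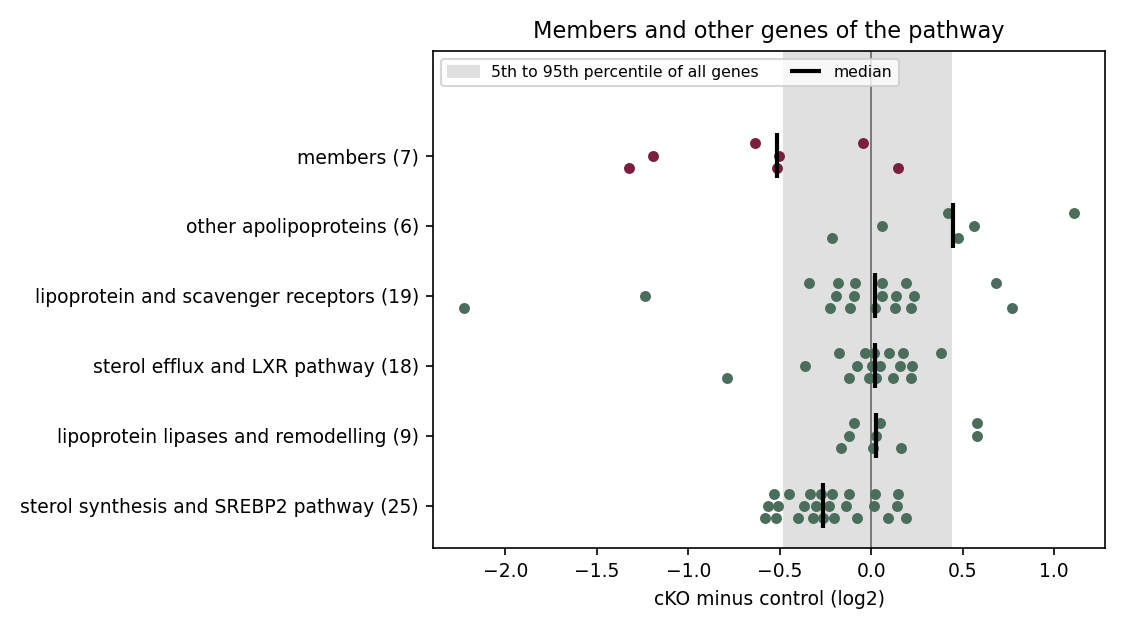
Difference between cKO and control on the log2 scale for the 7 members and for each measured gene of the 5 pathway lists, with the number of genes in brackets and the median as a bar. The grey band holds the middle 90% of all genes. The median lies at -0.52 for the members, at 0.45 for the other apolipoproteins, at -0.26 for sterol synthesis and at 0.02 for the other 3 lists.

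Several cell types of skin express the members, so markers of 10 cell types were set beside them, with sums over the list in units of the 75th percentile. Macrophages, a main source of Apoe in many tissues, had 7 of 10 markers higher in cKO skin in both litters and summed to 29.5 and 26.6 in cKO skin and to 25.7 and 16.7 in control skin. Lyz2 alone made up 20.7 and 18.6 of these sums in cKO skin and 16.6 and 10.51 in control skin. The other 9 markers summed to 8.82 and 7.94 in cKO skin and to 9.07 and 6.21 in control skin. Without Lyz2 the sum was thus slightly lower in cKO skin in litter 1 and higher in litter 2. Lyz2 was 1 of the 7 markers higher in both litters, and the rest of those 7 were higher without it. Schwann cell markers, of a cell type rich in Apoe and Apod, had 1 of 6 measured higher and 2 lower in both litters and summed to 7.54 and 5.64 in cKO skin and to 9.08 and 7.34 in control skin, with Cdh19 not well above background. Fibroblast markers, of a cell type known for Apod, had 4 of 6 lower and 1 higher in both litters, and 1 mixed. They summed to 679 and 403 in cKO skin and to 766 and 507 in control skin. That sum rests mostly on the collagen markers, the brightest of the list. Sebaceous gland markers, with 5 of 8 measured, summed to 178 and 170 in cKO skin and to 180 and 174 in control skin, with Far2 and Mc5r not well above background. The part of the macrophage, Schwann cell and fibroblast markers in the lower Apod and Apoe levels was not tested. Keratinocyte markers were higher in both litters for 6 of 6, and melanocyte markers for 4 of 4 measured. As background to these marker counts, 40.4% of all genes were higher in both litters and 32.1% lower. Endothelial markers had a median difference of -0.08 (-0.21 in litter 1 and -0.03 in litter 2) and red cell markers -0.37 (-0.37 and -0.46). Skeletal muscle markers had a median of 0.42, with 0.16 in litter 1 and 0.65 in litter 2. Their sum was lower in cKO skin in litter 1 (270 against 299) and higher in litter 2 (293 against 217). No marker passed the test between genotypes (limma, lowest adjusted p = 0.0534).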

How the data were processed

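Back skin RNA of 2 cKO and 2 control mice was measured on 1-colour Agilent whole mouse genome arrays (design 014868, probe positions in mm9, per the file headers), which shared 1 slide and 1 scan time. Signals were extracted with Agilent Feature Extraction, version 10.5 per the submitters' processing notes and 10.7.3.1 per the file headers. The deposited scanner files hold the authors' intensity values per spot, of which the background-subtracted, detrended processed signal was used. The authors' series table holds deposited log2 values, which matched the scaled values below after each probe was centred on its median (correlation at least 0.99999, column medians -0.06 and 0.08 for cKO replicates 1 and 2, -0.08 and 0.06 for control replicates 1 and 2).

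Here, processed signals were put on the log2 scale and the 75th percentile of all gene spots of their array was subtracted, with control spots left out. Spots of a probe were then averaged, after 51 to 66 outlier spots per array had been left out. Of 41174 probes, 22190 were well above background on both arrays of a group, and the brightest probe stood for each of 15552 genes. Names came from accessions for 26690 probes, symbols for 5189 and synonyms for 952 (RefSeq, GRCm38.p6), and from the files for 8343. The tests were limma fits (version 3.58.1, R 4.3.3), two-sided, with Benjamini-Hochberg adjustment over all genes and a threshold of 0.05 (2 residual and 2.37 prior degrees of freedom). The code was tested on simulated data. Litters pair the animals per the labels, and deviations from the group means correlated at 0.35 across genes. Normalization, background, filter, probe rule, litter block and left-out arrays were varied. The number of arrays limits the precision. For a gene near background throughout a group, the fold is a lower limit: the mean of the brighter group against, per array, the higher of the probe's own level and the lowest level among probes well above background.

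The members and lists were chosen with earlier results of these data known. Besides the members with all probes and Adam17, the text names up to 4 genes of each pathway list past the threshold (or, where none passed, those 2 whose p was smallest, as values only) and the 3 genes most like Apoe and Clu, passing over clone names. One gene that this rule would name is not reported here. Genes beside Apoe were chosen by position. Other names, Apoa1, Apob, Cdh19, Far2 and Mc5r, are examples of genes below background, and Lyz2 was named after its values were seen.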

Additional observations from a re-analysis of the deposited data

How the results depend on the processing

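The 53 genes called between genotypes are 0.341% of those tested. The share was 0.514% with quantile normalization (80 genes), 0.688% with median scaling (30 genes higher and 77 lower) and 0.187% when all 4 arrays had to be well above background (28 genes). It was 0 with the replicate block, with normexp background correction and with no filter on dim probes. Leaving out 1 array gave 0 to 0.244%, with 38 genes without cKO replicate 1, 24 without cKO replicate 2 and 0 without either control. Normexp, which had 3 spots below their local background on the array of cKO replicate 2, gave 0.868% (135 genes) when those spots were left out, an alternative chosen after seeing the data. The share between litters, 0, was 0.09% with normexp (14 genes), 0.778% with normexp without those spots (121 genes) and 0 to 0.0257% with 1 array left out, where 4 genes passed without control replicate 2. The causes were not tested. No pathway list gene was called under any alternative.

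The median difference of the members, -0.52, was -0.66 with normexp and -0.66 to -0.48 with 1 array left out. Over the 14 or 15 alternatives of each member, Apoe ran from -1.59 to -1.18, Clu from -1.40 to -1.13, Apod from -0.82 to -0.34, Abca1 from -0.66 to -0.44, Abcg1 from -0.72 to -0.29 and Vldlr from 0.08 to 0.35. None of these changed sign. Apoc1 ran from -0.32 to 0.03 and changed sign in 2 alternatives, without cKO replicate 1 and without control replicate 2.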
